A study of Homo sapiens with 131 samples.

Results

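The mRNAs of the proteasome were followed through a study of processing bodies in the human colon cancer line HCT116 and the human embryonic kidney line HEK293T. The set comprised every gene whose symbol is PSM, a letter from A to F and a number. Membership used the symbol and no measured value, but the set was chosen with earlier results of these data known. It counted 44 genes among the 59409 genes of the expression table, and 41 of them were listed in at least 1 of the 40 tables of RNA editing. Of these, 24 were in all 40 tables, and each table held between 31 and 41. The set was grouped by role into 8 subunits of the alpha ring, 3 catalytic and 4 structural subunits of the beta ring, 4 subunits of the immunoproteasome and thymoproteasome, 6 ATPases and 11 non-ATPases of the regulatory particle, 3 assembly chaperones of its base, 4 activators and 1 inhibitor.

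The proteasome is the barrel-shaped protease that degrades ubiquitin-tagged proteins in the cytoplasm and nucleus. Its core particle is a stack of alpha and beta rings whose inner beta faces carry the active sites, and the regulatory particle recognises ubiquitin, removes it, and threads the unfolded substrate into the core with a ring of ATPases. The subunits are made in fixed stoichiometry, and transcription factors such as NFE2L1 raise their mRNAs together when proteasome activity falls. Processing bodies are cytoplasmic condensates of mRNAs with translational repressors and decay factors, among them the RNA helicase DDX6, LSM14A, 4E-T, PATL1, EDC3, EDC4 and DCP2.

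In the editing experiments a body component was fused to an enzyme that marks RNA nearby. APOBEC1 converts C to U (the STAMP design) and the ADAR2 deaminase domain, ADAR2dd, converts A to I (the HyperTRIBE design), and both marks were read by mRNA sequencing of total RNA. The induced HCT116 lines carried a fusion or an unfused enzyme. LSM14A-ADAR2dd had 2 libraries against 2 of ADAR2dd-control, and APOBEC1-DDX6 had 3 against 3 of APOBEC1-control. Of the other fusions, 9 with ADAR2dd and 9 with APOBEC1 had 2 libraries each and 7 had 1. A line with APOBEC1-DDX6 and LSM14A-ADAR2dd together was set against a line with both unfused enzymes, APOBEC1_ADAR2dd-control, in HCT116 and in HEK293T, with 2 libraries each, and once more in HCT116 in libraries labelled illumina. In HEK293T, LSM14A-TRIBE-ID and DDX6-STAMP-ID cells were taken after rapamycin for 15, 30, 60 (LSM14A only) and 120 min and before it, at 0 min, with 2 libraries a time. DDX6-KO and WT cells of both lines were profiled by polysome sequencing, 1 nanopore library of each line gave poly(A) tail lengths in dually edited cells, and 4 uninduced HCT116 lines gave expression levels. The labels name neither the inducing agent nor the clones, and do not say whether libraries of a group came from separate cultures, so p-values measure the spread between these libraries.

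The 83 libraries with editing values held between 6259071 and 13432692 reads, with a median of 9976552. EPCAM, a colorectal epithelial marker, lay between 377 and 432 TPM in the uninduced HCT116 libraries, while LGALS4, CEACAM5, CEACAM6 and VIL1, markers of differentiated colon, stayed at or below 0.400 TPM. Of the markers of other cells, PTPRC, CD3E, COL1A2, PECAM1 and ALB were at or below 0.306 TPM and COL1A1 was at 11.3 to 22.1 TPM. The DDX6 mRNA of the knockout cells could not be followed, since the translation table holds ratios and no levels. Named pseudogenes exist for 20 of the 44 members and 5 overlap another coding gene, and how shared reads were counted is not given in the sources used here.

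Levels in the uninduced lines came first. In TPM, which corrects for transcript length, PSMA7 of the alpha ring averaged 389, PSMB5 of the chymotrypsin-like site 379, and PSMB3, a structural beta subunit, 345 over the 10 libraries. The immunoproteasome subunits PSMB8, PSMB9 and PSMB10, which replace PSMB5, PSMB6 and PSMB7 after interferon, averaged 0.611, 4.34 and 2.27 TPM. PSMA2 averaged 1.04 TPM and PSMA6 2.71 TPM, far under PSMA7, PSMB11 of the thymoproteasome 0.0176 TPM, and the testis subunit PSMA8 was listed at 0. PSMA2 was in 0 and PSMA6 in 19 of the 40 editing tables. Whether the low values of PSMA2 and PSMA6 reflect expression or the counting of shared reads was not tested.

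Nearly the whole particle was higher in the line with unfused ADAR2dd than in the line with unfused APOBEC1, both uninduced. PSMC3, an ATPase of the base, had 358 and 351 TPM in ADAR2dd-control, 246 and 243 TPM in APOBEC1_ADAR2dd-control, 193, 181 and 189.9 TPM in APOBEC1-DDX6, and 151, 143 and 141 TPM in APOBEC1-control. PSMB5 had 580.5 and 583 TPM in ADAR2dd-control, 386 and 380.3 TPM in APOBEC1_ADAR2dd-control, 322, 327 and 317 TPM in APOBEC1-DDX6, and 297, 284 and 311 TPM in APOBEC1-control. For both genes, each of the other lines stood above APOBEC1-control in every library. PSMD8, a subunit of the lid, had 241 and 249.8 TPM in ADAR2dd-control and 106, 110.2 and 111 TPM in APOBEC1-control. By limma on log2(TPM + 1), PSMC3 differed by 1.28 ± 0.03 (log2, SE, adjusted p = 7.04e-09), PSMD8 by 1.16 (adjusted p = 4.63e-09) and PSMB5 by 0.97 ± 0.03 (adjusted p = 2.86e-08). PSMD14, the deubiquitinase of the lid, had 88.0 and 86.6 TPM in ADAR2dd-control against 53.5, 53.2 and 53.3 TPM in APOBEC1-control, a difference of 0.70 ± 0.02 (log2, SE).

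Of 41 members tested among 16229 genes, 39 rose in ADAR2dd-control over APOBEC1-control at an adjusted p under 0.05, when 39.2% of all genes did. The median difference was 0.750 (log2) for the members and 0.105 for all genes, and 40 of the 41 were higher in every ADAR2dd-control library than in any APOBEC1-control library, as were 45.1% of all genes. The 2 that were not called were PSMB9 (0.24 ± 0.17, log2, SE) and PSMA2. In APOBEC1_ADAR2dd-control 37 members rose (39.6% of all genes), with a median of 0.456 against 0.134, and in APOBEC1-DDX6 26 rose (23.6%), with a median of 0.136 against 0.013. PSMB10 was among these 26, at 3.05, 3.40 and 3.28 TPM in APOBEC1-DDX6, against 1.74, 1.11 and 0.805 TPM in APOBEC1-control (0.96 ± 0.22, log2, SE, adjusted p = 0.00663), and PSMB9 had 6.46 and 6.82 TPM in APOBEC1_ADAR2dd-control against 3.08, 2.35 and 3.59 TPM in APOBEC1-control (0.94 ± 0.17, log2, SE, adjusted p = 0.00144). With each library centred on its median gene, a setting added after the data were seen, 38, 33 and 27 members rose in the 3 lines, when 31.9%, 26.7% and 24% of all genes did. The 3 comparisons share the APOBEC1-control libraries, and the line and the enzyme it carries cannot be told apart.

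**Figure D1:**
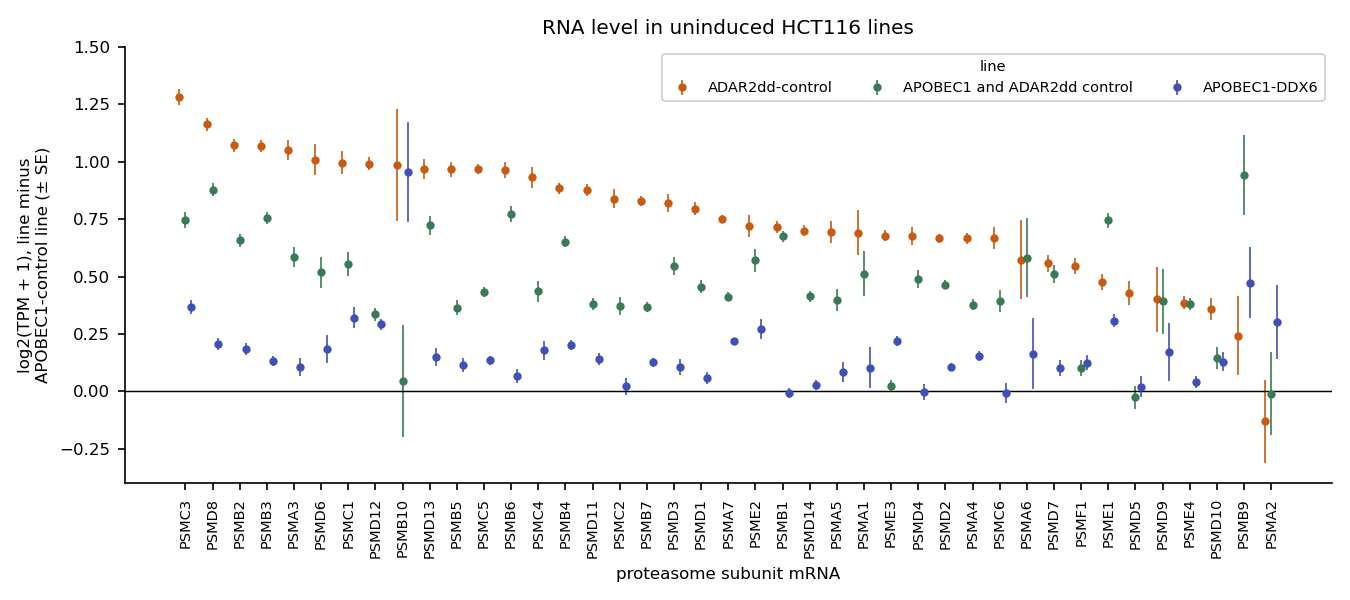
Difference in log2(TPM + 1), with its standard error, of the uninduced ADAR2dd-control, APOBEC1_ADAR2dd-control and APOBEC1-DDX6 lines from the uninduced APOBEC1-control line, for 41 members ordered by the ADAR2dd-control difference. The ADAR2dd-control points lie above 0 for 40 of the 41 members, with a median of 0.750, and the APOBEC1-DDX6 points have a median of 0.136.

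Promoters are shown here because NFE2L1, which controls transcription of proteasome genes, binds antioxidant response elements. The core TGACNNNGC, searched on both strands in the 250 bases before the start (RefSeq, GRCh38.p14), occurred in 9 of 39 members with a window, 23.1%, and in 11% of 27305 promoters of the same length. The 9 were PSMB3, PSMB9, PSMD3, PSMD5, PSMD9, PSMD12, PSME1, PSME2 and PSME4. CCAAT occurred in 17 of 39, 43.6%, against 33.0% of all. The 3 motif-holding members with the largest difference between ADAR2dd-control and APOBEC1-control are printed 5′ to 3′ on the gene's strand, with the match in capitals: PSMB3 (chr17:38752491-38752740, plus strand, match beginning 104 bases before the start), PSMD12 (chr17:67366578-67366827, minus strand, 165 bases before) and PSMD3 (chr17:39980557-39980806, plus strand, 37 bases before).
PSMB3: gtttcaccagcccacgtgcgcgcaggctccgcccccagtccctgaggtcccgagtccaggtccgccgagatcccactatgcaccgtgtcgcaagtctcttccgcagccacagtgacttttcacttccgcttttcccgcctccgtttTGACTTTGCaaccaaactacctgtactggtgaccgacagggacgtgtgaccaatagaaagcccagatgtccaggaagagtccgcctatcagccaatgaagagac
PSMD12: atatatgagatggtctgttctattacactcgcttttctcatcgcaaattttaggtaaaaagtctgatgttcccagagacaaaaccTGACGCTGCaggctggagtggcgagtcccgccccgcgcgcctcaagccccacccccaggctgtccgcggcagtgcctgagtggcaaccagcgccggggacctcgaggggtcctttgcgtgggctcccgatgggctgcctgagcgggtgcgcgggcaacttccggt
PSMD3: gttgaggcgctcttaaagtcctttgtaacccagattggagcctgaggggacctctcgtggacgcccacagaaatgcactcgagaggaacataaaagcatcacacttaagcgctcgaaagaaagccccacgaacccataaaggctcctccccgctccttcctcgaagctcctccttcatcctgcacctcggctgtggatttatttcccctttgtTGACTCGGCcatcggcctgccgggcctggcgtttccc
PSMB3 had 510.3 and 535 TPM in ADAR2dd-control against 247, 245 and 254 TPM in APOBEC1-control. PSMD12, a lid scaffold, had 190.5 and 182 TPM in ADAR2dd-control against 93.6, 93.0 and 93.1 TPM in APOBEC1-control. PSMD3, another lid subunit, had 206 and 213 TPM in ADAR2dd-control against 118, 114 and 122 TPM in APOBEC1-control. PSMC3 and PSMD8, with the larger differences above, hold no TGACNNNGC in this window, which says only that these letters are not there. PSMB3, PSMD12 and PSMD3 were picked by this difference, so their values cannot show whether the motif goes with higher levels. PSMB9, which also holds the motif, was not called in ADAR2dd-control, and a link between motif and level was not tested.

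In induced APOBEC1-DDX6 cells most members fell. PSMA3, an alpha subunit, had 64.3, 63.0 and 60.4 RPM (its reads scaled to a common library total) in APOBEC1-DDX6 against 118, 114 and 122 RPM in APOBEC1-control, a log2 fold change of −1.03 ± 0.04 (SE, edgeR quasi-likelihood test, adjusted p = 1.02e-69). PSMD14 had 99.5, 98.3 and 102 RPM in APOBEC1-DDX6 against 165, 157 and 164 in APOBEC1-control. PSMB5 had 159, 153 and 151 RPM in APOBEC1-DDX6 against 217, 224 and 225 in APOBEC1-control. All 3 genes were lower in every fusion library than in any control library, and the share of all genes so separated is not given here. These values are not corrected for length and are compared only within a gene, and in bulk RNA fewer expressing cells and less RNA per cell cannot be told apart.

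Of 39 members tested with APOBEC1-DDX6, 30 fell, when 41.5% of all 11474 genes did, and 4 rose (41.9% of all genes). The median log2 fold change was −0.358 for the members and 0.001 for all genes. PSMB9 rose most, with 8.65, 9.17 and 8.26 RPM in APOBEC1-DDX6 against 4.28, 4.21 and 4.68 in APOBEC1-control (0.87 ± 0.15, log2, SE, adjusted p = 1.81e-08), and the chaperones PSMD5 and PSMD9 and the activator PSME2 rose by 0.10 to 0.42. Scaled by library totals, a setting added after the data were seen that moves the median of all genes to 0.120, 29 members fell and 8 rose, PSMC4, PSMD8, PSME4 and PSMF1 joining the 4, when 5710 genes rose and 3910 fell.

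In HEK293T cells with both fusions, 26 of 36 members fell (33.2% of 11078 genes) and 4 rose (33.6%). PSMD1, the scaffold of the base, had 125 and 127 RPM in the dual line against 222 and 219 in APOBEC1_ADAR2dd-control (−0.88 ± 0.04, log2, SE, adjusted p = 1.51e-105), and PSMD10, a chaperone of the base also known as gankyrin, had 91.6 and 86.9 against 153 and 153 (−0.84 ± 0.05). PSME1, an activator subunit induced by interferon, had 71.3 and 66.2 RPM in the dual line against 52.6 and 49.1 in APOBEC1_ADAR2dd-control (0.37 ± 0.07). The members' median was −0.238 and that of all genes 0.006. With LSM14A-ADAR2dd, 6 of 38 members rose (14.1% of 11164 genes), PSMA3 by 0.31 ± 0.06, and PSMD1 alone fell, by 0.18 ± 0.06 (13% of genes). Leaving out ADAR2dd-control library 1 left no call by edgeR, leaving out its library 2 left 1 higher, and leaving out LSM14A-ADAR2dd library 2 gave 13 higher and 5 lower, so these counts rest on single libraries.

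The A-to-I marks of LSM14A-ADAR2dd were above the control on almost every proteasome mRNA tested, as on 93.1% of all genes tested. An editing level is the share of a gene's reads that carry an edit, and the level of all members pooled was 4.12% and 4.30% in the LSM14A-ADAR2dd libraries against 0.116% and 0.153% in the ADAR2dd-control libraries. All reads of the tables together were edited at 4.96% and 4.90% in LSM14A-ADAR2dd and at 0.232% in each ADAR2dd-control library. PSMB4, a structural beta subunit, stood highest, with 183 of 1239 and 277 of 1935 reads edited in LSM14A-ADAR2dd, 14.8% and 14.3%, against 8 of 2273 and 9 of 2191 in ADAR2dd-control, 0.352% and 0.411%. PSMD1 had 11.9% and 13.5% in LSM14A-ADAR2dd against 0.109% and 0 in ADAR2dd-control, and PSMC4, an ATPase, had 9.03% and 9.44% against 0.300% and 0.650%. The groups did not overlap for these 3 mRNAs, and the share of all genes without overlap is not given here. PSMB4 differed by 5.23 ± 0.23 (log2, SE, adjusted p = 5.44e-13) and PSMD1 by 7.68 ± 0.35 (adjusted p = 9.06e-13).

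Several mRNAs had no edited read at all in ADAR2dd-control. PSMD8 had 150 of 1728 and 273 of 2626 reads edited in LSM14A-ADAR2dd against 0 of 3019 and 0 of 2843 in ADAR2dd-control, at least 189.8-fold higher with the control set at 3 edited reads over the group. PSMD2, the other large base scaffold and a docking site for ubiquitin receptors, had 233 of 3782 and 335 of 5991 edited reads in LSM14A-ADAR2dd against 0 of 6545 and 0 of 6334 in ADAR2dd-control, at least 249.5-fold higher. PSMB5 had 6.19% and 6.38% in LSM14A-ADAR2dd against 0 of 2829 and 0 of 2785 reads in ADAR2dd-control, at least 118-fold higher. PSMB7, the trypsin-like subunit, had 3.70% and 2.97%, the ubiquitin receptor PSMD4 3.11% and 3.01%, and PSMD14 1.80% and 2.03% in LSM14A-ADAR2dd, each against 0 in both ADAR2dd-control libraries. These floors cover counting error only, and reads without molecular identifiers are not independent molecules.

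At the other end, PSMB2 and PSMD12 carried nearly the same marks with and without LSM14A. PSMB2, a structural beta subunit, had 21 of 1139 and 26 of 1614 reads edited in LSM14A-ADAR2dd, 1.84% and 1.61%, against 31 of 1991 and 27 of 1889 in ADAR2dd-control, 1.56% and 1.43%, a log2 difference of 0.19 ± 0.30 (SE, adjusted p = 0.538). PSMD12 had 1.55% and 1.15% in LSM14A-ADAR2dd against 0.860% and 1.31% in ADAR2dd-control (0.28 ± 0.30, adjusted p = 0.368). The ATPase PSMC2 had 0.717% and 0.292% in LSM14A-ADAR2dd against 0 and 0.137% in ADAR2dd-control (2.68, adjusted p = 0.0347). PSMB6, the caspase-like subunit, had no edited read in 674 and 1155 reads of LSM14A-ADAR2dd or in 1453 and 1405 reads of ADAR2dd-control. PSMB9 had 1 of 32 and 1 of 39 reads edited in LSM14A-ADAR2dd against 0 of 34 and 0 of 40 in ADAR2dd-control, and PSMB10 0 of 9 and 1 of 32 against 0 of 24 and 0 of 27, too few for a test.

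A member was tested where no library had under 20 of its reads and its edited reads summed to 10 or more, as 31 did. Of these, 29 rose in LSM14A-ADAR2dd, when 93.1% of all genes tested did, and 17 of the 29 had no edited read in ADAR2dd-control. An mRNA without control edits reached 10 edited reads only through the fusion libraries. Its rise was therefore in part set by this filter, here and in the later editing comparisons. All 6 ATPases rose, with levels from 0.469% to 9.29% pooled over the fusion libraries, 9 of 10 non-ATPases tested (0.303% to 12.9% over the 11 listed), and 2 of 2 catalytic subunits tested. Over the 38 members with 20 reads the median level was 2.7%, against 3.42% over 11164 genes, and in ADAR2dd-control 60.5% of these members had no edited read, against 24.4% of all genes. Divided by the library-wide edited share, called relative editing here, 11 members rose more than the library as a whole (12.6% of genes) and 2 less (10.8%). The 11 were PSMD2, PSMD8, PSMB5, PSMC5, PSMC3, PSMD4, PSMB7, PSMC1, PSMD1, PSME3 and PSMD3, and 8 of them had 0 edited reads in ADAR2dd-control. PSMD1 exceeded the library by 3.40 ± 0.62 (log2, SE, adjusted p = 7.79e-04), while PSMB4 did not pass (0.84 ± 0.34, adjusted p = 0.0854). PSMB2 and PSMD12 fell short by 4.20 ± 0.32 (adjusted p = 6.07e-08) and 4.11 ± 0.33 (adjusted p = 9.54e-08). No relative call was left by edgeR without either LSM14A-ADAR2dd library, and without ADAR2dd-control library 1 or 2 the higher calls numbered 5 and 6.

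The C-to-U marks of APOBEC1-DDX6 were sparse on proteasome mRNAs, and PSMD10 and PSMA1 carried the most. The pooled level of the members was 0.331%, 0.302% and 0.445% in APOBEC1-DDX6 against 0.0656%, 0.0520% and 0.0822% in APOBEC1-control, while all reads were edited at 1.27%, 1.32% and 1.36% against 0.314%, 0.309% and 0.315%. PSMD10 stood highest, with 39 of 795, 23 of 653 and 30 of 668 reads edited in APOBEC1-DDX6, 4.91%, 3.52% and 4.49%, against 0 of 730, 1 of 684 and 0 of 725 in APOBEC1-control. This was 93.0-fold on pooled reads, with a log2 difference of 6.08 ± 0.64 (SE, adjusted p = 3.01e-10), and every fusion library lay above every control library. PSMA1 of the alpha ring, with far fewer reads, had 2.16%, 2.64% and 2.63% in APOBEC1-DDX6 against 0.339%, 0 and 0 in APOBEC1-control (3.85, adjusted p = 0.00122). PSMD1 had 1.2%, 0.690% and 1.33% in APOBEC1-DDX6 against 0, 0 and 0.0407% in APOBEC1-control (5.82, adjusted p = 5.70e-09). PSMB5 had 0.655%, 0.424% and 1.19% against 0, 0 and 0.0946% (4.32, adjusted p = 6.55e-06). All 4 mRNAs were separated from the control libraries, and PSMB5 varied most between fusion libraries in relation to its mean. The share of all genes separated in this way is not given here, and 52% of genes tested were called higher.

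PSMB2, which LSM14A-ADAR2dd left near its control, had 1.16%, 0.630% and 1.79% C-to-U in APOBEC1-DDX6 against 0.163%, 0.11% and 0.109% in APOBEC1-control (3.14, adjusted p = 5.10e-06). PSMD12 had 0.906%, 0.849% and 1.77% in APOBEC1-DDX6 against 0.167%, 0.333% and 0.0894% in APOBEC1-control. The chaperone PSMD5 had 0.993%, 1.38% and 1.04% in APOBEC1-DDX6 against 0.304%, 0.108% and 0.329% in APOBEC1-control (2.15, adjusted p = 0.00109). Conversely PSMB4, the member most edited by LSM14A-ADAR2dd, had 0 of 2051, 0 of 1737 and 0 of 1703 reads edited in APOBEC1-DDX6 against 4, 0 and 3 edited reads in APOBEC1-control. Over the 36 members with at least 100 reads per library, the A-to-I level of LSM14A-ADAR2dd and the C-to-U level of APOBEC1-DDX6 had a Spearman correlation of −0.0542, against 0.134 over 9094 genes, a description across genes that are not replicates.

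PSMD14 had 4 of 1242, 7 of 1062 and 0 of 1024 reads edited in APOBEC1-DDX6 against 0 in every APOBEC1-control library (adjusted p = 0.00362), and the libraries overlapped at 0. The lid subunit PSMD13 had 0.0670%, 0.288% and 0.253% in APOBEC1-DDX6 against 0.0661%, 0.0680% and 0.141% in APOBEC1-control (1.05, adjusted p = 0.353). PSME4, the large nuclear activator, had 0.709%, 0.354% and 0.769% against 0.283%, 0.428% and 0.244% (0.93, adjusted p = 0.0662), so that for both mRNAs a control library reached into the range of the fusion. PSMB6 alone was lower with the fusion, at 0, 0 and 0.10% in APOBEC1-DDX6 against 0.472%, 0 and 0.601% in APOBEC1-control (−3.20, adjusted p = 0.0207), and this call was lost without APOBEC1-control library 1 or 3, the 2 that hold its edits. PSMB7 had no edited read in 1608, 1397 and 1330 reads, and PSMD4 had 1 in 1770 in a single library. PSMB1, PSMB3, PSMC3, PSMC5 and PSME2 also had 0 edited reads in APOBEC1-DDX6, of 5743, 3051, 5704, 6672 and 4198 reads over the 3 libraries. PSMB8 had 0 of 39, 0 of 25 and 1 of 34, PSMB9 0 of 108, 1 of 99 and 0 of 83, and PSMB10 0 of 33, 0 of 18 and 0 of 26.

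Of 16 members tested, 12 rose in APOBEC1-DDX6 (52% of all genes tested) and 1 fell (2.73%). The median level over 39 members with 20 reads was 0.112%, against 1.06% over 11474 genes. The 3 chaperones of the base ranged from 0.709% to 4.35%, with a median of 1.13%, whereas the ATPases had a median of 0.0687%, the alpha ring 0.0469%, the non-ATPases 0.136% and the structural beta subunits 0. Relative to the library-wide share, PSMD10 (4.28 ± 0.82, log2, SE, adjusted p = 9.95e-05), PSMD1 (4.03 ± 0.87, adjusted p = 4.23e-04) and PSMB5 (2.41, adjusted p = 0.0323) were higher (11% of genes) and PSMB6 was lower (−5.01 ± 1.06, adjusted p = 3.22e-04; 20.3% of genes).

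**Figure D2:**
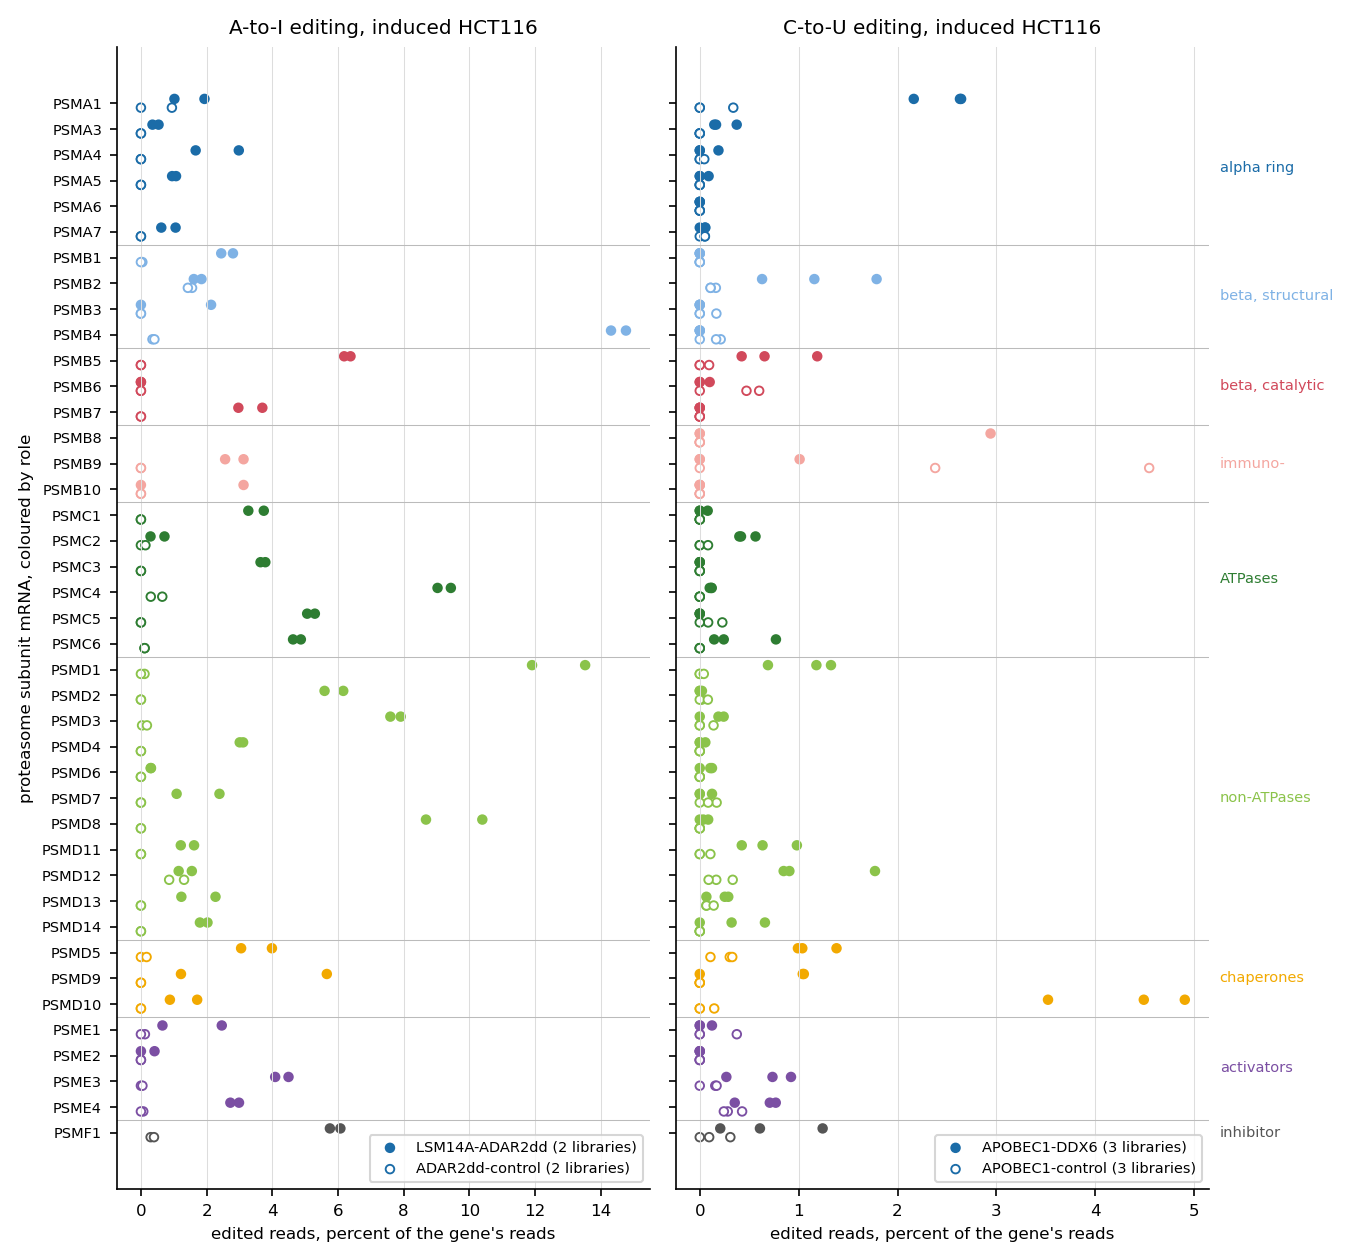
Percent of reads edited per library for each member, ordered and coloured by role: A-to-I in LSM14A-ADAR2dd (filled) and ADAR2dd-control (open) on the left, C-to-U in APOBEC1-DDX6 (filled) and APOBEC1-control (open) on the right. PSMB4 reaches 14.8% on the left and stays at 0 in the fusion libraries on the right, where PSMD10 reaches 4.91%; PSMB8, PSMB9 and PSMB10 rest on as few as 7 reads a library.

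The other ADAR2dd fusions were set against the same control libraries, and which members were most edited varied between them. With ADAR2dd at the C-terminus of 4E-T, a DDX6 partner, 29 of 30 members rose (87.9% of genes) and 15 exceeded the library (14.7%), PSMD8, PSMD14 and PSMD4 among them. DDX6-ADAR2dd raised 13 of 16 (49.2%), ADAR2dd-DDX6 10 of 15 (46.1%), PATL1-ADAR2dd 13 of 17 (60.3%), ADAR2dd-LSM14A 6 of 11 (21.9%), ADAR2dd-EDC3 3 of 9 (12.3%) and ADAR2dd-4E-T and ADAR2dd-PATL1 1 each of 9 and 8 (4.84% and 1.47%). EDC3-ADAR2dd raised none of 7 by edgeR (4.98% of genes), with 2 at an unadjusted p under 0.05, both higher. PSMD2, PSMC5 and PSMD1 recurred among the mRNAs that exceeded the library, with 6 members for DDX6-ADAR2dd (9.64%), 5 for PATL1-ADAR2dd (12.6%), 3 each for ADAR2dd-DDX6 (7.92%) and ADAR2dd-LSM14A (5.3%), and PSMB4 alone for ADAR2dd-EDC3 (2.66%). PSMB2 and PSMD12 fell short with 4E-T-ADAR2dd (10.9%), DDX6-ADAR2dd (6.82%), PATL1-ADAR2dd (8%), ADAR2dd-DDX6 (3.9%) and ADAR2dd-LSM14A (1.61%), and PSMB2 alone with ADAR2dd-EDC3 (0.578%). PSMB4 was at 14.5% with LSM14A-ADAR2dd, 3.73% with 4E-T-ADAR2dd, 2.46% with DDX6-ADAR2dd, 0.798% with EDC3-ADAR2dd and 0.189% with ADAR2dd-4E-T, against 0.381% in ADAR2dd-control. PSMD1 was at 12.9% with LSM14A-ADAR2dd and 4.01% with ADAR2dd-DDX6 against 0.0568%, and PSMD8 at 9.72% with LSM14A-ADAR2dd, 6.34% with 4E-T-ADAR2dd and 0 with ADAR2dd-PATL1 against 0. PSMB2 lay between 1.03% and 2.79% and PSMD12 between 0.711% and 1.35% across all 10 ADAR2dd fusions, ranges that include their ADAR2dd-control levels. PSMB4 was among the 3 most edited members in 7 of the 10 fusions, PSMC4 in 6, PSMB2 in 5 and PSMD1 in 4.

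Among the APOBEC1 fusions, LSM14A-APOBEC1 raised 5 of 12 members (27.9% of genes), APOBEC1-PATL1 3 of 8 (23.4%), 4E-T-APOBEC1 3 of 8 (18.8%) and EDC4-APOBEC1 1 of 6 (1.09%). APOBEC1-4E-T (5.05%), DDX6-APOBEC1 (1.7%), EDC3-APOBEC1 (0.859%) and PATL1-APOBEC1 (0.51%) called none of 7 or 8 members by edgeR, with 2 each at an unadjusted p under 0.05, of which 1 was PSMB6, lower, and the other a member that was higher. DCP2-APOBEC1 raised none of 4 (0.927%), with 3 at an unadjusted p under 0.05, all lower. PSMB6 was lower with DCP2-APOBEC1 (7.03% of genes), LSM14A-APOBEC1 (2.09%) and APOBEC1-PATL1 (2.15%). All these fusions were set against the same APOBEC1-control libraries, where PSMB6 had 6 of 1270, 0 of 1195 and 7 of 1165 reads edited. The lower results for PSMB6 therefore rest on the same control reads and are not independent. PSMA1, PSMD10 and PSMB5 exceeded the library with LSM14A-APOBEC1 (8.01%), PSMD10 with APOBEC1-PATL1 (7.13%), PSME3 with 4E-T-APOBEC1 (6.17%) and PSMB2 with EDC4-APOBEC1 (1.26%), while PSMB6 fell short with LSM14A-APOBEC1 (8.92%) and APOBEC1-PATL1 (9.57%). Over these 9 fusions edgeR made 12 higher calls and DESeq2 4. PSMD10 was at 4.35% with APOBEC1-DDX6, 1.59% with LSM14A-APOBEC1, 1.15% with APOBEC1-PATL1, 0.788% with 4E-T-APOBEC1 and 0 with DCP2-APOBEC1 and EDC3-APOBEC1, against 0.0468% in APOBEC1-control. PSMA1 was at 5.88% with LSM14A-APOBEC1, 28 of 476 reads, and at 2.47% with APOBEC1-DDX6, against 0.124%. PSMA1 was among the 3 most edited members in 7 of 10 APOBEC1 fusions and PSMD10 in 6. PSMA1 had enough edited reads for a test only with APOBEC1-DDX6 and LSM14A-APOBEC1, and PSMD10 only with these and APOBEC1-PATL1. Their other places rest on under 10 edited reads summed over fusion and control libraries.

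Both marks were then read in the same cells. In HCT116 with both fusions, all members pooled were edited at 3.96% and 4.19% A-to-I, against 0.137% and 0.136% in APOBEC1_ADAR2dd-control, and at 0.249% and 0.259% C-to-U, against 0.0363% and 0.0135%. PSMD8 had 334 of 3497 and 350 of 3302 reads with A-to-I edits in the dual line against 0 of 3098 and 0 of 3475 in APOBEC1_ADAR2dd-control, at least 220.4-fold higher, and exceeded the library (adjusted p = 1.58e-05). PSMB4 had 14.1% and 13.5% in the dual line against 0.513% and 0.793% in APOBEC1_ADAR2dd-control. PSMC3 had 3.72% and 3.59%, and the nuclear activator PSME3 4.73% and 4.49%, each against 0 in both control libraries. PSMB2 again overlapped its control, at 1.90% and 1.22% in the dual line against 1.11% and 1.27% in APOBEC1_ADAR2dd-control. PSMD12 had 1.21% and 1.35% against 0.411% and 0.453%, and PSMC6, the ATPase next in relative order, 2.48% and 3.19% against 0.352% and 0.232%.

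Among the active-site subunits and the ubiquitin-handling subunits of the dual line, PSMB6 alone had almost no A-to-I edits. PSMB5 had 3.87% and 4.81%, PSMB7 3.82% and 4.90% and PSMD14 2.05% and 1.66%, each against 0, PSMD4 3.54% and 4.07% against 0.0383% and 0, and PSMB6 0.268% and 0 against 0. PSMB9 had 0 of 61 and 1 of 86 reads edited against 0 of 60 and 0 of 67, and PSMB10 3 of 67 and 0 of 43 against 0 of 15 and 0 of 25.

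Of 31 members tested for A-to-I in the HCT116 dual line, 30 rose (94.8% of genes), 16 exceeded the library (11.8%) and 2, PSMB2 and PSMD12, fell short (10.2%). Members without control edits, such as PSMD8, PSMC3 and PSME3, passed the filter only through the dual libraries, which in part set their rise. The relative calls were all lost by edgeR without either dual library, and 9 higher calls were made without APOBEC1_ADAR2dd-control library 2. The A-to-I levels of the members in LSM14A-ADAR2dd and in the dual line had a Spearman correlation of 0.923 over 36 members and 0.839 over 9203 genes, across genes. The libraries labelled illumina gave 29 of 31 members higher (92.2%), 13 above the library (11.1%) and 3 below it (11.7%), PSMB1, PSMB2 and PSMD12.

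For C-to-U in the HCT116 dual line, 9 of 13 members rose (50.6% of genes) and PSMB2, PSMB5 and PSMD10 exceeded the library (11.2%). PSMD10 had 2.84% and 3.24% in the dual line against 0.107% and 0 in APOBEC1_ADAR2dd-control (5.52 ± 0.75, log2, SE, adjusted p = 5.34e-06). PSMB2 had 1.84% and 1.22% in the dual line against 0 and 0 in APOBEC1_ADAR2dd-control, at least 26.9-fold higher (adjusted p = 9.44e-07). PSMB5 had 0.375% and 0.535% against 0 and 0 (adjusted p = 1.95e-04). These 3 mRNAs were also edited in the APOBEC1-DDX6 line above. PSMD1 had 1.21% and 0.419% against 0.0313% and 0, and the lid subunit PSMD7 0.409% and 0.782% against 0. PSMD5 had 0.520% and 0.680% against 0.0810% and 0.296%, PSME4 0.310% and 0.309% against 0.206% and 0.0306%, and the inhibitor PSMF1 0.327% and 0.535% against 0.427% and 0.0709%. PSMB7 had no edited read, PSMD14 0.293% and 0, and PSMD4 0 and 0 against 0.0383% and 0. Without dual library 2 the higher calls numbered 5, and without either dual library no relative call was left by edgeR. In the illumina libraries 7 of 14 rose (49%) and PSMD1, PSMB5, PSMB2 and PSMD12 exceeded the library (11.3%).

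HEK293T cells with both fusions had PSMB4, PSMC4 and PSMD1 as the members most edited by LSM14A-ADAR2dd, over higher control levels. PSMB4 had 10.0% and 11% A-to-I in the dual line against 1.84% and 1.13% in APOBEC1_ADAR2dd-control (2.82 ± 0.18, log2, SE, adjusted p = 6.75e-10), PSMD1 11.4% and 7.77% against 0.434% and 0.673%, and PSMC4 9.21% and 10.4% against 1.85% and 1.15%. PSMA4 of the alpha ring had 5.41% and 6.43% against 0, at least 96.8-fold higher, PSMD4 5.93% and 5.70% against 0, and PSMB1, a structural beta subunit, 3.15% and 2.93% against 0. PSMB5 had 7.51% and 7.61% against 0 and 0.726%, PSMB7 3.15% and 4.00% against 0, and PSMD14 3.80% and 4.57% against 0. PSMC2 was again low, at 0.688% and 0.353% against 0 and 0.179%. Here PSMB2 and PSMD12 did rise: PSMB2 had 2.89% and 3.28% against 0.866% and 0.688% (1.97, adjusted p = 1.53e-05), and PSMD12 1.73% and 3.14% against 0.772% and 1.03% (1.42, adjusted p = 0.00397).

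All 33 members tested for A-to-I rose in the HEK293T dual line (94.5% of genes), 11 exceeded the library (8.72%) and PSMB4, PSMC4, PSMB2 and PSMD12 fell short of it (5.98%), by 0.95, 1.08, 1.78 and 2.33 on the log2 scale. Without either dual library no relative call was left by edgeR. Without APOBEC1_ADAR2dd-control library 1 or 2 the higher calls numbered 5 and 4, and without its library 1 the lower ones numbered 2. The members' levels in the HCT116 and HEK293T dual lines had a Spearman correlation of 0.872 over 34 members, and 0.751 over 8950 genes.

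C-to-U in the HEK293T dual line was again led by PSMD10, with 55 of 774 and 45 of 659 reads edited, 7.11% and 6.83%, against 6 of 1266 and 10 of 1244, 0.474% and 0.804%, in APOBEC1_ADAR2dd-control (3.43 ± 0.33, log2, SE, adjusted p = 5.32e-08). PSMA1 followed with 5.46% and 5.59% in the dual line against 0.823% and 0.877% in APOBEC1_ADAR2dd-control (2.62, adjusted p = 0.00296). PSME3 had 2.57% and 3.58% against 0 and 0.231% (4.70, adjusted p = 2.10e-07). PSMD1 had 2.94% and 2.59% against 0.271% and 0 (4.24, adjusted p = 2.75e-06), and PSMB2 4.02% and 2.84% against 1.68% and 1.26% (1.23, adjusted p = 9.19e-04). For all 5 mRNAs the dual libraries lay above the control libraries. The share of all genes separated in this way is not given here, and 67.6% of genes tested were called higher. PSMB5 had 1.60% and 2.03% against 0 and 0.605%, PSMB6 0.346% and 0.481% against 0, PSMB7 0.0769% and 1.51% against 0, and PSMD14 1.12% and 0.247% against 0 and 0.108%. PSMA4 had 0.309% and 1.04% against 0, the lid subunit PSMD6 0.602% and 1.72% against 0 and 0.0739%, and PSMB4 0.416% and 0.262% against 0.167% and 0.216%. Of 25 tested, 20 rose (67.6% of genes), and DESeq2 called 11.

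Relative to the library, PSME3, PSMD1 and PSMD10 were higher in HEK293T C-to-U (6.23% of genes) and PSMD4 lower (4.85%), with 1 of 2243 and 0 reads edited in the dual line against 9 of 1974 and 0 in APOBEC1_ADAR2dd-control, so that its control libraries overlapped the dual ones. DESeq2 and limma made none of these 4 calls. The editing calls numbered 13 and 10 without dual library 1 and 2. No relative call to the higher side was left by edgeR without either dual library and 1 without control library 1, and PSMD4 was lost without control library 1. The median C-to-U level was 0.696% over 35 members and 2.19% over 10942 genes, and the members' C-to-U levels in the HCT116 and HEK293T dual lines had a Spearman correlation of 0.817 over 33 members and 0.719 over 8886 genes.

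In LSM14A-TRIBE-ID cells rapamycin brings the editing enzyme to LSM14A, so editing could be read over time. All members pooled were edited at 0.829% and 0.802% at 0 min, 1.22% and 1.13% at 15 min, 1.87% and 1.67% at 30 min, 3.45% and 3.08% at 60 min, and 5.78% and 5.01% at 120 min. PSMD1 had 2.22% and 2.42% at 0 min, 4.41% and 3.99% at 15 min, 6.19% and 5.74% at 30 min, 9.72% and 10.2% at 60 min, and 18.4% and 15.3% at 120 min. PSMD14 had 0 and 0 at 0 min, 0 and 0.556% at 15 min, 2.03% and 1.93% at 30 min, 4.31% and 4.64% at 60 min, and 7.98% and 7.58% at 120 min. From 30 min on, both libraries of PSMD14 lay above both at 0 min, and at 120 min it was at least 80.6-fold over 0 min (adjusted p = 7.47e-07).

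PSMC1, an ATPase of the base, had 5.0% and 5.63% at 120 min against 0 at 0 min, at least 58.9-fold, and PSMD13 3.73% and 4.32% against 0, at least 45.5-fold. PSMB4 started highest, at 6.16% and 5.98% at 0 min, 6.31% and 5.83% at 15 min, 8.51% and 7.68% at 30 min, 13.5% and 11.7% at 60 min, and 18.4% and 15.1% at 120 min. Its 120 min fold change was 1.46 ± 0.20 (log2, SE, adjusted p = 3.42e-05), against 2.85 ± 0.24 for PSMD1 (adjusted p = 7.62e-07). PSMB5 had 0.915% and 1.34% at 0 min and 8.53% and 10.3% at 120 min, and PSMD4 0 and 0.277% at 0 min and 4.23% and 3.72% at 120 min. PSMB7 had 0.229% and 0 at 0 min and 2.25% and 2.36% at 120 min, and PSMB6 was at 0 in every library but 1, at 120 min, with 0.495%. PSMB2 had 2.00% and 2.21% at 0 min, 2.52% and 1.38% at 30 min, and 2.27% and 2.46% at 120 min (0.17 ± 0.28, adjusted p = 0.573), and PSMD12 0.771% and 0.826% at 0 min and 1.04% and 1.33% at 120 min (0.57, adjusted p = 0.257).

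**Figure D3:**
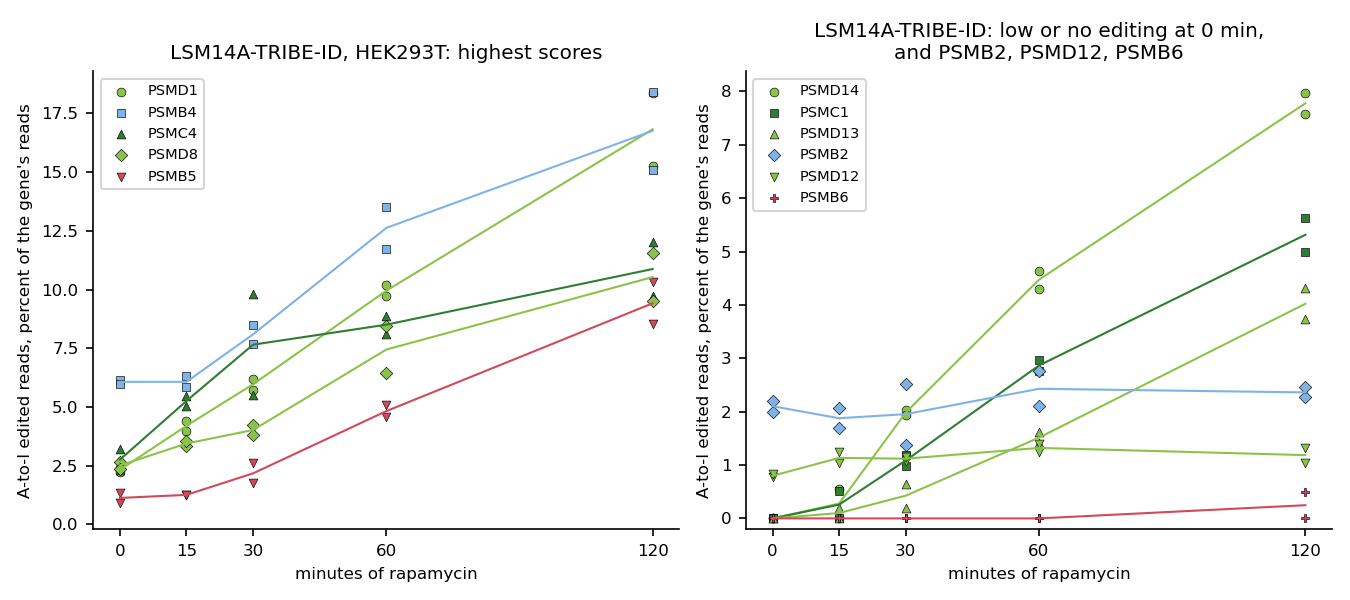
Percent of reads with A-to-I edits in LSM14A-TRIBE-ID cells against minutes of rapamycin; dots are the 2 libraries of a time and lines join their means. On the left, PSMB4 and PSMD1 climb to above 15% at 120 min from unequal starts; on the right, PSMD14, PSMC1 and PSMD13 start at 0, while PSMB2 stays between 1.38% and 2.76% and PSMD12 between 0.771% and 1.40%.

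The members that passed the test against 0 min numbered 3 of 19 at 15 min (16.8% of genes), 17 of 26 at 30 min (56.9%), 25 of 27 at 60 min (79.7%) and 27 of 29 at 120 min (86.6%), and all were higher. At 120 min 11 members exceeded the library (18.3%), led by PSMD14 (adjusted p = 2.30e-04), PSMC1 (adjusted p = 7.98e-04) and PSMD13 (adjusted p = 0.00191), and PSMD8, PSMC4, PSMB4, PSMD12 and PSMB2 fell short (8.66%). PSMB4 fell short by 1.32 ± 0.15 (log2, SE, adjusted p = 5.45e-05) and PSMB2 by 2.60 ± 0.26 (adjusted p = 2.23e-05). PSMD14, PSMC1, PSMB1 and PSME3 exceeded the library from 30 min on (11.2% of genes at 30 min, 15.9% at 60 min). Without 120 min library 1 or 2 the higher relative calls numbered 4 and 3 and the lower ones 2 and 2. The times share the 0 min libraries.

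DDX6-STAMP-ID cells, in which rapamycin brings APOBEC1 to DDX6, gave no member that passed at 15, 30 or 120 min, by edgeR or DESeq2, of 15, 15 and 13 tested, with 1, 1 and 0 at an unadjusted p under 0.05. Few genes passed at all (0.0159%, 0.0321% and 0% of genes). PSMD10 had 31 of 1300 and 13 of 1395 reads edited at 120 min, 2.38% and 0.932%, against 18 of 1365 and 28 of 1311 at 0 min, 1.32% and 2.14%, so the mark was present before rapamycin. PSMB5 had 0.740% and 0.615% at 120 min against 0.430% and 0.233% at 0 min, PSMD12 0.503% and 0.306% against 0.183% and 0.302%, and PSMD11, a lid subunit, 0.307% and 0.163% against 0.159% and 0.162%. PSMA4 had 0.168% and 0 at 120 min against 0.124% and 0.366% at 0 min, PSME3 0.10% and 0 against 0.179% and 0.0314%, and PSMB1 0.153% and 0.10% against 0.178% and 0.297%. PSMB5, PSMD12 and PSMD11 had both 120 min libraries above both 0 min libraries, for PSMD12 and PSMD11 barely so, and PSMB1 had both below. These members were named by the size of their relative differences, so their separation is not support for a change. The share of all genes separated in this way is not given here. PSMB7 had 0 and 0 at 120 min against 0 and 0.138% at 0 min, PSMD4 0.136% and 0 against 0.0445% and 0.188%, and PSMD14 0 and 0.163% against 0 and 0.570%.

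Translation efficiency in DDX6-KO and WT cells came as 1 log2 value per gene, genotype and line, so the differences have no replicate check. In HCT116 the regulatory particle and its chaperones held the 6 largest differences. PSMD7 had 1.23 in DDX6-KO cells against 0.22 in WT cells, a difference of 1.01, PSMD1 −1.10 against −2.01 (0.91) and PSMD10 1.52 against 0.62 (0.89). PSMD11 had 0.60 in DDX6-KO cells against −0.26 in WT cells, PSMD12 −0.58 against −1.43 and PSMD14 0.57 against −0.28. The active-site subunits went the other way: PSMB5 had 0.43 in DDX6-KO cells against 0.68 in WT cells, PSMB6 0.77 against 0.99 and PSMB7 0.61 against 0.90. The immunoproteasome subunits PSMB8, PSMB9 and PSMB10 differed by −0.19, −0.27 and −0.16, and PSMD4 by 0.07.

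Of 42 members with both HCT116 values, 14 lay above 0.5, 33.3%, against 23.5% of 20041 genes, with none below −0.5, against 3.58% of genes. The members' median was 0.06 and that of all genes 0.16, and after subtracting the all-gene median 10 of 42 lay above 0.5, 23.8% against 15.9%, and 25 were negative. By role, the median was 0.68 for the 11 non-ATPases, of which 6 lay above 0.5, 0.62 for the 3 chaperones, 0.32 for the 6 ATPases, −0.01 for the alpha ring, −0.12 for the structural and −0.25 for the catalytic beta subunits.

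In HEK293T 40 of 43 members had a higher value in DDX6-KO cells than in WT cells, as did 13720 of 25362 genes, and 5 exceeded 0.5, 11.6%, against 7.75% of all genes. PSME4 had 0.61 in DDX6-KO cells against −0.14 in WT cells (0.76) and PSMD14 0.73 against 0.11 (0.63), and PSMC2, PSMA3 and PSMC6 differed by 0.62, 0.57 and 0.52. All 5 were above 0.5 in HCT116 too, where 23.5% of all genes were. The share of all genes above 0.5 in both lines is not given here. PSMB5, PSMB6 and PSMB7 differed by 0.17, 0.11 and 0.14, PSMB8, PSMB9 and PSMB10 by −0.14, 0.15 and −0.03, PSMD4 by 0.24, and PSMD1 by 0.08. The members' median was 0.16 and that of all genes 0.02.

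**Figure D4:**
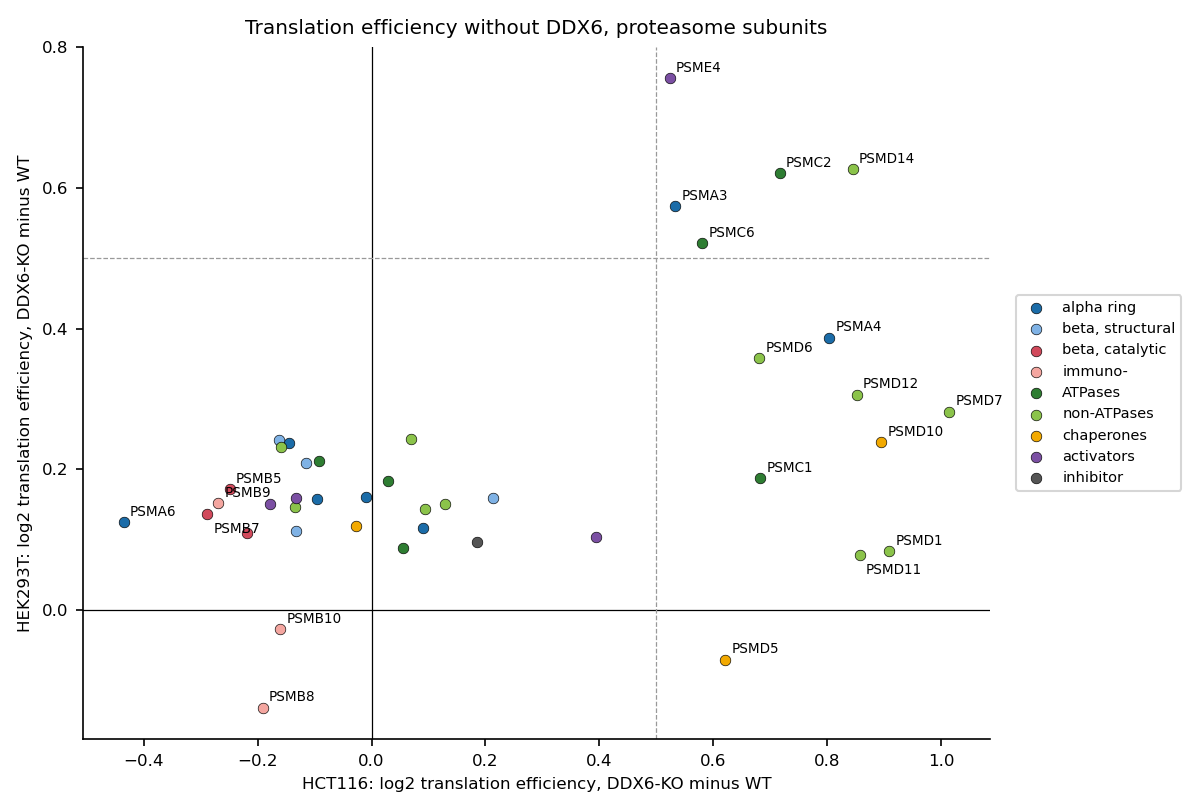
Log2 translation efficiency of DDX6-KO minus WT cells, in HCT116 (horizontal) and HEK293T (vertical), for 42 members coloured by role, with dashed lines at 0.5. The 5 members past both lines are PSME4, PSMD14, PSMC2, PSMA3 and PSMC6, and 17 members lie left of 0 in HCT116 and above 0 in HEK293T. The share of all genes past both lines is not given here.

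C-to-U marks were set beside the translation values. The 14 members above 0.5 with at least 100 reads had a median level of 0.415%, and 10 were above 0.1%, while the other 22 had a median of 0.0316%, and 8 were above 0.1%. The Spearman correlation was 0.53 over these 36 members and 0.311 over 9623 genes. In HEK293T it was −0.0029 over 34 members and 0.45 over 9711 genes. For A-to-I it was −0.0927 over the members in HCT116, against 0.117 over 9264 genes. In HEK293T it was −0.27 over the members, against 0.126 over 9749 genes. These are descriptions across genes, whose points share libraries and depth.

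**Figure D5:**
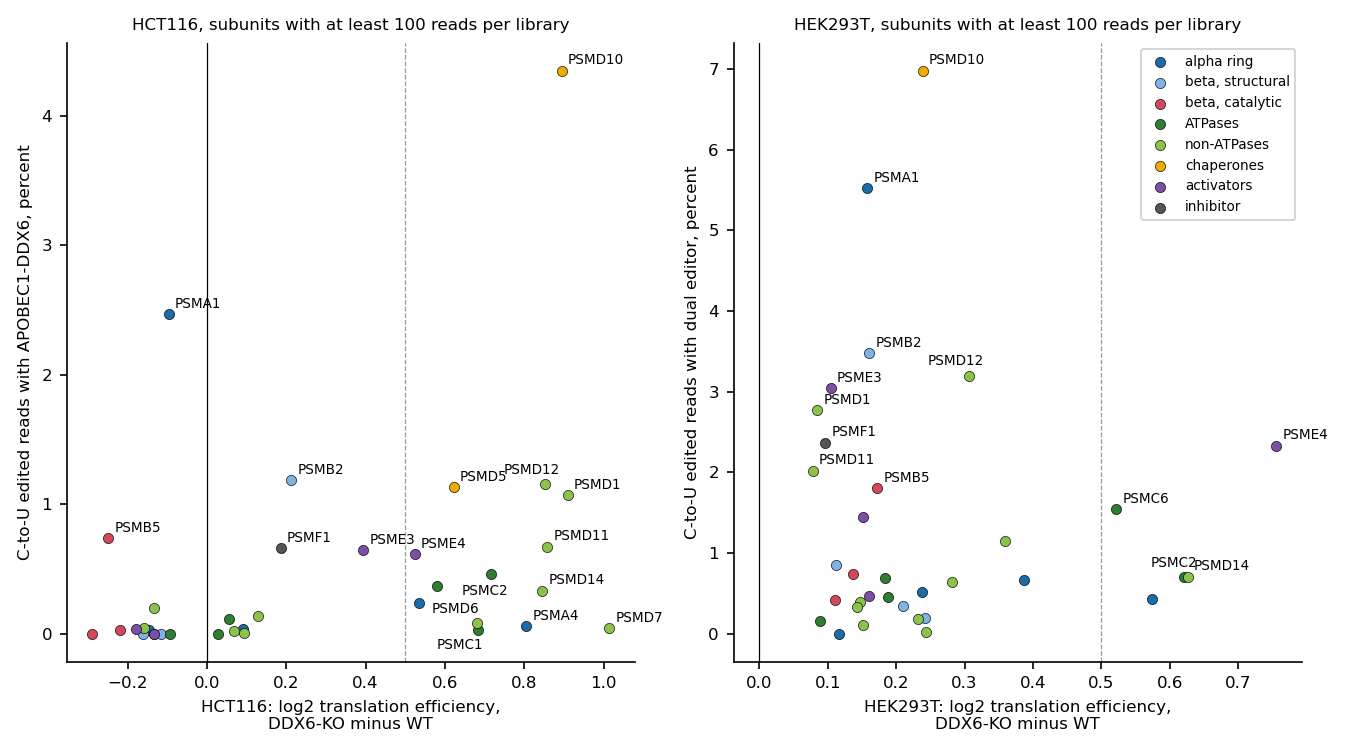
Percent of reads with C-to-U edits (vertical) against the log2 translation efficiency difference of DDX6-KO minus WT cells (horizontal), for 36 members in HCT116 (APOBEC1-DDX6) and 34 in HEK293T (dual line). PSMD10 lies highest in both, at 0.89 on the horizontal axis in HCT116; PSMB4 and PSMB7 lie at 0% left of 0 in HCT116.

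Nanopore reads of the dual lines compared poly(A) tails of reads with both marks and of the other reads in genes that the authors listed as targets. In HCT116, PSMB5 had 56 of 935 reads with both marks, 5.99% (95% Clopper-Pearson interval 4.56 to 7.71), with a median tail of 96.3 nt against 119 nt in the other reads, a difference of −22.6 nt. PSMD1 had 38 of 161, 23.6% (17.3 to 30.9), with 119 nt against 141 nt (−21.7 nt). Over 684 genes with 20 reads of each kind the median difference was −39.5 nt, and 612 were shorter. In HEK293T, PSMB5 had 27 of 201 reads with both marks, 13.4% (9.04 to 18.9), with 63.5 nt against 94.0 nt (−30.5 nt, equal to the median of 217 genes). PSMD1, with 11 of 23 reads, had 103 nt against 74.6 nt, and PSMA4 (8 of 165), PSMD10 (9 of 39) and PSME3 (11 of 60) differed by −81.8, −69.7 and −28.0 nt. There was 1 library per line, so no test was made.

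Genes that work with the proteasome were followed as a list of 35: 20S assembly chaperones, other regulatory subunits, shuttle factors that deliver ubiquitinated proteins, the p97 unfoldase complex, proteasome-bound enzymes, and the factors that control transcription of proteasome genes. With LSM14A-ADAR2dd, 30 of 31 tested rose (93.1% of all genes), 5 exceeded the library (12.6%) and 2 fell short (10.8%). UBE3C, a proteasome-bound ubiquitin ligase, had 5.77% of reads edited in LSM14A-ADAR2dd against 0 in ADAR2dd-control, and the p97 ATPase VCP 2.72% against 0. The p97 cofactor NPLOC4 had 5.38% against 0.673%, and NGLY1, the glycanase that activates NFE2L1, 1.14% against 0.482%, both less than the library rose. With APOBEC1-DDX6, 16 of 28 rose (52% of all genes), 3 exceeded the library (11%) and 2 fell short (20.3%). The transcription factor NFE2L2 had 1.27% in APOBEC1-DDX6 against 0 in APOBEC1-control, and the shuttle factor UBQLN1 3.07% against 0.155% (relative difference 2.24, log2, adjusted p = 1.09e-05). NPLOC4 had 0.0691% against 0.0825% and UBQLN4 0.479% against 0.409%, both under the rise of the library. In the HCT116 dual line 32 of 32 partners rose in A-to-I (94.8% of all genes) and 13 of 20 in C-to-U (50.6%). In the HEK293T dual line these were 30 of 30 (94.5%) and 26 of 29 (67.6%). At 120 min of rapamycin 26 of 28 rose in LSM14A-TRIBE-ID (86.6% of all genes), while none of 19 passed in DDX6-STAMP-ID by edgeR (0% of all genes), with 0 at an unadjusted p under 0.05.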

How the data were processed

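The members and gene lists were chosen with earlier results of these data known. The submitters' processing notes name the build hg38, featureCounts 2.0.1, STAR 2.7.9a, FastQC 0.11.9 and cutadapt, without saying what each was used for. The deposited editing tables hold, per gene and library, counts of reads and of edited reads and the edited fraction made by the authors. How edits were called and filtered is not given in the sources used here. The deposited TPM, log2 translation efficiency and tail tables (read counts and median tail lengths per gene) were made by the authors.

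From these, edgeR 4.0.16 (R 4.3.3) tested edited reads with the log of a gene's reads as offset (editing), or the log of those reads times the library-wide edited share (relative editing). A gene needed 20 reads in each library and 10 edited reads summed over them, and Benjamini-Hochberg adjustment ran over all genes tested, with a threshold of 0.05 and two-sided tests. RNA level in induced cells used edgeR with TMM on reads, and uninduced TPM used limma 3.58.1 with trend on log2(TPM + 1), leaving out genes averaging under 1 TPM, which understates the change of low genes. Each comparison was fitted with its own groups, the 4 uninduced lines together. Translation and tail values have 1 value per group, so differences were given with no test. DESeq2 1.42.0, limma, other filters, a replicate block and leaving out each library were the alternatives. The models were tested on simulated data. Read deviations of LSM14A-TRIBE-ID libraries with the same number were correlated (0.713 to 0.758 over 20 pairs), so these numbers pair the libraries. With 2 libraries a time, the pairs of both numbers give the same value. The main fits left this pairing out, and only the replicate block used it. Reads of 15 of 41 library pairs agreed within counting noise but edited reads of none of 47 pairs did. These counts cannot settle whether libraries of a pair came from separate cultures, since edited reads are not independent molecules. All libraries were kept apart. The named genes included, in each main comparison, the 3 members with the largest and the 3 with the smallest relative difference among those with 100 reads in every library, and PSMB5, PSMB6, PSMB7, PSMB8, PSMB9, PSMB10, PSMD4 and PSMD14 throughout. Other members, such as PSMB4, PSMC4 and PSMA1, were named from their observed levels. All 44 members matched RefSeq. Depth was 6259071 to 13432692 reads per library. For 20 samples no table was used.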

Additional observations from a re-analysis of the deposited data

Results flagged for a closer look

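The direction of the translation efficiency difference (DDX6-KO minus WT cells) was opposite in the 2 cell lines for 17 of 42 members, which were below 0 in HCT116 and above 0 in HEK293T, as were 2594 of 18872 genes, 13.7%. They were PSMA1, PSMA2, PSMA5, PSMA6, PSMB1, PSMB3, PSMB4, PSMB5, PSMB6, PSMB7, PSMB9, PSMC3, PSMD8, PSMD9, PSMD13, PSME1 and PSME2. All 3 catalytic subunits of the beta ring were among them. A difference of any size counted, and PSMD9 lay at −0.026 in HCT116. PSMB7 differed by −0.29 in HCT116 and 0.14 in HEK293T, PSMB5 by −0.25 and 0.17, and PSMB6 by −0.22 and 0.11. PSMD5, an assembly chaperone, went the other way, by 0.62 in HCT116 and −0.07 in HEK293T, as did 29.3% of all genes. The median over all genes was 0.157 in HCT116 and 0.022 in HEK293T, and after subtracting it 25 of 42 members were below 0 in HCT116. With 1 value per genotype and line the difference between the lines was not tested.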

How the results depend on the processing

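Counts of members that rose in editing held within 1.5 times under most alternatives, and counts relative to the library moved by more in the cases given here. No named value changed sign while called. Of the named members' values, 470 kept their call, 92 lost one and 11 gained one, 80 of these changes on leaving out a library. The cause of the shifts below was not tested.

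With limma on log2 levels, relative calls were 4 higher in LSM14A-ADAR2dd (11 by edgeR), 2 lower in APOBEC1-DDX6 (1), 7 higher in dual HCT116 A-to-I (16), 2 lower in dual HEK293T A-to-I (4), 0 higher and 0 lower in dual HEK293T C-to-U (3 and 1), and 4 higher and 3 lower in LSM14A-TRIBE-ID at 120 min (11 and 5). With DESeq2 they were 1 higher in dual HCT116 C-to-U (3), 1 lower in dual HEK293T A-to-I, 0 and 0 in dual HEK293T C-to-U, 5 higher and 3 lower in LSM14A-TRIBE-ID, 15 over the other ADAR2dd fusions (33), 0 over the other APOBEC1 fusions (6) and 4 over the other rapamycin times (9). For editing itself DESeq2 gave 11 in dual HEK293T C-to-U (20) and 4 over the other APOBEC1 fusions (12). With no filter there were 4 lower in APOBEC1-DDX6 and 2 in dual HEK293T C-to-U, and 2 there with at least 50 reads. RNA level in LSM14A-ADAR2dd had 1 member lower by edgeR, 0 with DESeq2 size factors and 4 with library totals, which gave 8 higher in APOBEC1-DDX6 (4). Past 1 (log2), translation efficiency named 1 member in HCT116 (14) and 0 in HEK293T (5). The members' median tail difference in HEK293T was −28.0 nt over 3 members with at least 10 reads of each kind. With at least 20 reads it was −30.5 nt, from PSMB5 alone. Over all genes these medians were −33.1 and −30.5 nt.

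Where replicate numbers were shared, a replicate block gave 9 higher in dual HCT116 A-to-I, 5 in dual HCT116 C-to-U, 2 lower in dual HEK293T C-to-U and 2 lower in RNA level of LSM14A-ADAR2dd, and moved no other count by over 1.5 times. Outside LSM14A-TRIBE-ID the numbers only name libraries: same-numbered libraries correlated from −0.061 to 0.10.

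Leaving out each library in turn, with a lone library taken to vary like the other group, gave relative calls of 0 to 6 higher and 0 to 2 lower in LSM14A-ADAR2dd, 0 to 1 lower in APOBEC1-DDX6, 0 to 14 and 0 to 2 in dual HCT116 A-to-I, 0 to 3 higher in C-to-U, 0 to 5 and 0 to 4 in dual HEK293T A-to-I, 0 to 3 and 0 to 2 in C-to-U, and 3 to 10 and 2 to 5 in LSM14A-TRIBE-ID. The 0 counts by edgeR followed the loss of either fusion library, and in HEK293T C-to-U, for the lower call, also of control library 1. In APOBEC1-DDX6 the lower call was lost without APOBEC1-control library 1 or 3. Editing calls were 5 to 11 in dual HCT116 C-to-U, the 5 without dual library 2, and 10 to 18 in HEK293T, with 13 and 10 without dual library 1 and 2. RNA level calls in LSM14A-ADAR2dd were 0 to 13 higher and 0 to 5 lower. Reads per gene limit the C-to-U tests, where 16 members could be tested in APOBEC1-DDX6.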

Other observations

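Of the fusions with a single library, APOBEC-DCP2, which carries the decapping enzyme, had 10 of 717 PSMD10 reads edited, 1.39% (95% Clopper-Pearson interval 0.671 to 2.55), against 0.0468% in the pooled APOBEC1-control libraries. APOBEC-EDC3 had 2 of 379, 0.528%, and APOBEC1-LSM14A 1 of 479, 0.209%. APOBEC1-CNOT10 had 0 of 956, which by the limit of 3 reads allows up to 0.314%, and APOBEC1-EDC4, CNOT1-R-APOBEC1 and CNOT10-APOBEC1 had 0 of 436, 0 of 979 and 0 of 1104. With 1 library each, these values were not tested. The tables of CNOT1-R-APOBEC1 and CNOT10-APOBEC1 are attached to each other's sample, and each was assigned by the title of its column.

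Among the partners of the proteasome in the dual lines, those named here exceeded the library by edgeR at an adjusted p under 0.05. UBE3C had 5.01% of reads with A-to-I edits in HCT116 against 0 in APOBEC1_ADAR2dd-control, and ZFAND5, a proteasome activator, 2.49% against 0. In HEK293T the shuttle factor UBQLN4 had 8.37% against 0. For C-to-U, UBQLN1 had 2.33% against 0 and NFE2L2 1.10% against 0 in HCT116, and the aspartic protease DDI2, which cleaves NFE2L1, 7.30% against 0.813% in HEK293T. At 120 min of rapamycin in LSM14A-TRIBE-ID, UBQLN2 had 2.33% against 0 at 0 min, and SEM1, a small lid subunit, 3.32% against 1.78% (adjusted p = 0.0502 for editing), less than the library rose.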
